A study of Mus musculus with 16 samples.

Results

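Adult medial prefrontal cortex was compared between wild-type mice exposed to fluoxetine as pups and wild-type mice exposed to vehicle, across all genes measured by RNA sequencing. The 8 samples were those whose columns carry the wild-type fluoxetine (WT-Flx, n = 4 mice) and wild-type vehicle (WT-Veh, n = 4 mice) labels, out of 16 in the series, and the 8 samples from Arid1b heterozygotes were not used. All 8 mice were C57BL/6N males without an Arid1b mutation, from a study of a chromatin-remodeling gene linked to autism, and they were sampled at postnatal day 120. WT-Flx pups had received the drug through the milk of dams that drank 0.2% saccharin water with 0.1 mg/ml fluoxetine hydrochloride from postnatal day 3 to 21, and the dams of WT-Veh pups drank 0.2% saccharin water alone. After weaning both groups drank plain water, so the tissue was taken long after exposure ended. The labels give 1 sample per mouse but do not say which mice shared a dam, so the p-values measure the spread between mice. The drug was given per dam, so a difference between litters cannot be told apart from that spread or from an effect of the drug. Every n, SE and interval below counts mice and not dams. The question was whether early exposure leaves a lasting mark on the transcriptome of animals that carry no mutation.

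Fluoxetine is a selective serotonin reuptake inhibitor. It blocks the transporter that clears serotonin from the extracellular space, so that serotonin acts for longer on its receptors, which are G protein-coupled except for one family of ligand-gated channels. Serotonin also acts as a developmental signal: its axons reach the cortex around birth, and pyramidal neurons and interneurons carry distinct sets of its receptors during the weeks in which cortical synapses form.

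The tissue carried the markers of cortex in every mouse. Slc17a7, the vesicular glutamate transporter of cortical excitatory neurons, ranged from 32162 to 42999 normalized read counts over the 8 mice. Tbr1, a deep-layer regulator, ranged from 3188 to 4316, Cux2, an upper-layer regulator, from 2701 to 5466, and Fezf2, a regulator of subcerebral projection neurons, from 584 to 905. Markers of the olfactory bulb, which lies in front of the prefrontal cortex, varied far more. Cdhr1, a cadherin of bulb output neurons, had normalized counts of 3485, 80.1, 80.0 and 64.9 in WT-Veh mice 1 to 4 and 692, 1448, 127 and 2993 in WT-Flx mice 1 to 4. Eomes, a regulator of the same neurons, had 899, 1.75, 14.8 and 3.17 in WT-Veh mice 1 to 4 and 149, 318, 25.3 and 857 in WT-Flx mice 1 to 4. WT-Veh mouse 1 and WT-Flx mice 1, 2 and 4 were thus high and the other 4 mice low, so the groups overlapped but were unevenly composed. All 10 bulb markers had a positive log2 difference (median 1.16), and none of the 10 passed an unadjusted p of 0.05. The first principal component of all genes (39.2% of the variance) set WT-Veh mouse 1 (score 56.7) and WT-Flx mice 1 (33.7) and 4 (23.9) apart from the other 5, whose scores ran from -31.9 to -7.21. Samples of the same group were no more alike than samples of different groups, with a median correlation of 0.975 within WT-Veh, 0.976 within WT-Flx and 0.976 between them. In bulk tissue, fewer cells of a type and less RNA per cell cannot be told apart.

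**Figure D1:**
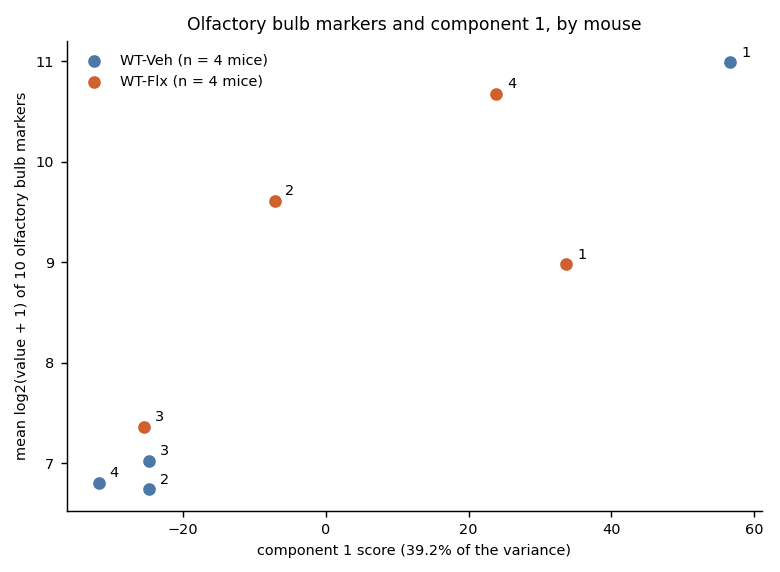
Score of each mouse on the first principal component of all genes (x axis, arbitrary units) against the bulb marker score (y axis, mean of log2(value + 1) over 10 markers), with WT-Veh in blue, WT-Flx in orange and the number of each mouse beside its point. WT-Veh mice 2 to 4 and WT-Flx mouse 3 sit together at low bulb scores of 6.74 to 7.36, and the other 4 mice lie between 8.98 and 10.99.

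No gene passed an adjusted p of 0.05 among 16833 tested (0.0%) by limma on log2(value + 1), two-sided. At an unadjusted p under 0.05 there were 707 genes, of which 371 were higher (2.2% of those tested) and 336 lower (2.0%) in WT-Flx. The 4 WT-Flx mice were all above the 4 WT-Veh mice for 304 genes (1.81%) and all below for 183 genes (1.09%). The median log2 difference over all genes was -0.00091, and 90% of genes lay between -0.37 and 0.38. The count of 0 depended on WT-Veh mouse 1: without it, 4 genes passed an adjusted p of 0.05 and 1714 an unadjusted p of 0.05. Without WT-Flx mouse 1, 0 genes passed the adjusted and 1413 the unadjusted threshold. With both of these and WT-Flx mouse 4 left out, a setting chosen after the data were seen, 25 genes passed.

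The size of difference that 4 mice per group could bound was set by the spread between mice. The 95% interval of the log2 difference had a median half-width of 0.34, and it lay wholly within ±1, a doubling or halving of the level, for 14260 genes (84.7%). Among the 12557 genes with a mean normalized count of at least 100, the half-width was 0.29, and 97.4% of intervals lay within ±1 and 73.0% within ±0.5. The read depth is unknown because the values are normalized, and the totals of normalized counts ranged from 93.5% to 103% of their mean.

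**Figure D2:**
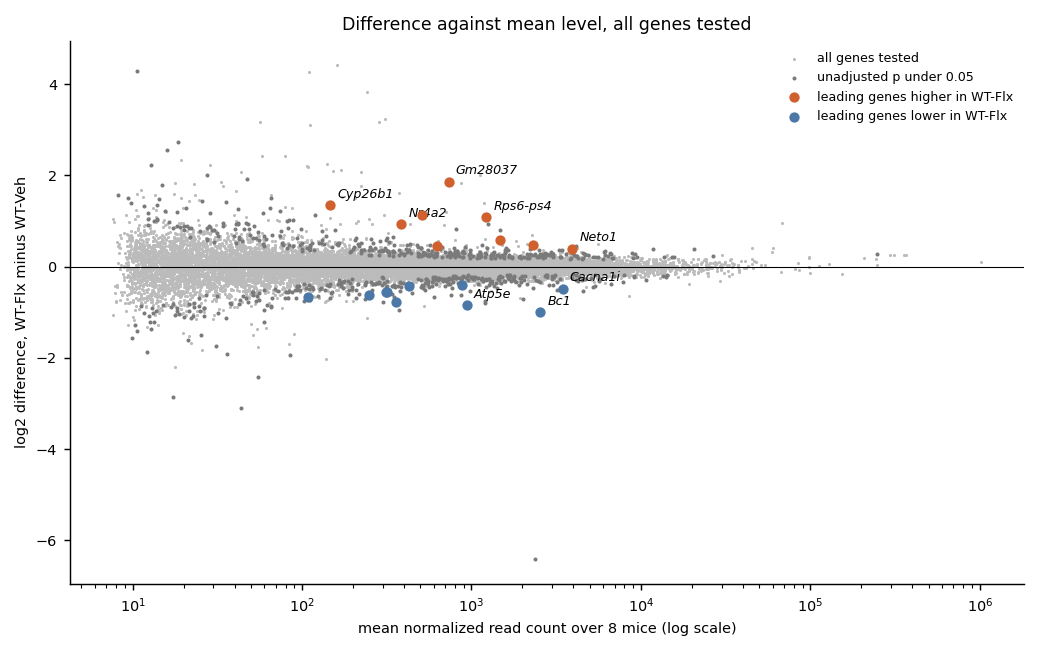
Log2 difference between WT-Flx and WT-Veh (y axis, 4 mice per group) against the mean normalized read count over the 8 mice (x axis, log scale) for the 16833 genes tested, with genes at an unadjusted p under 0.05 in dark grey and the leading genes in orange (higher in WT-Flx) and blue (lower). Cyp26b1 at 1.34 and Gm28037 at 1.86 are the labelled genes farthest above 0 and Bc1 at -0.998 the one farthest below, and the lowest point, named after its values were seen, is Gm10222 at -6.41, a gene listed at 0 in 4 of the 8 mice.

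The genes that led the ranking by p, among those with a mean of at least 100 and no overlap between the groups, are described one by one, and none passed the adjusted threshold. Cyp26b1, which degrades retinoic acid (chromosome 6, 84571414 to 84593908, GRCm38), had normalized counts of 137, 64.4, 68.2 and 70.6 in WT-Veh mice 1 to 4 and 218, 222, 220.3 and 170.1 in WT-Flx mice 1 to 4. The WT-Flx mice were all above the WT-Veh mice, and WT-Veh mouse 1 and WT-Flx mouse 4 stood nearest to the other group. The log2 difference was 1.34 ± 0.24 (SE, n = 4 and 4, adjusted p = 0.689). Nr4a2, an orphan nuclear receptor induced by neuronal activity and a marker of deep cortical and claustral neurons (chromosome 2, 57106830 to 57124003), had 393, 243, 209 and 237 in WT-Veh mice 1 to 4 and 535, 534, 517 and 423 in WT-Flx mice 1 to 4, again with mouse 1 highest among WT-Veh and mouse 4 lowest among WT-Flx. Its log2 difference was 0.93 ± 0.19 (SE, n = 4 and 4, adjusted p = 0.976). Without WT-Veh mouse 1, the differences of Cyp26b1 (1.59, adjusted p = 0.010 by limma) and Nr4a2 (1.12, adjusted p = 0.017) passed. They also passed with sample quality weights (adjusted p = 0.0081 and 0.016) and without the 3 mice high on the first component (adjusted p = 0.0082 for both). Those 3 were picked after the data were seen and include WT-Veh mouse 1 and WT-Flx mouse 4. Neither gene passed with the bulb marker score as a covariate (1.17 and 0.80, adjusted p = 0.45 and 0.64). With replicate number as a block neither passed (adjusted p = 0.29 and 0.36). Each gene passed in 3 of 19 alternatives.

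Neto1, an auxiliary subunit of kainate receptors that also binds NMDA receptors (chromosome 18, 86394952 to 86506718), had normalized counts of 3214, 3618, 3471 and 3308 in WT-Veh mice 1 to 4 and 4411, 4828, 4302 and 4344 in WT-Flx mice 1 to 4, a narrow spread in each group. The log2 difference was 0.39 ± 0.08 (SE, n = 4 and 4, adjusted p = 0.976). Pfdn2, a subunit of the prefoldin complex that hands unfolded actin and tubulin to a chaperonin (chromosome 1, 171345670 to 171359254), had 2134, 1814, 1907 and 1902 in WT-Veh mice 1 to 4 and 2771, 2528, 2565 and 2903 in WT-Flx mice 1 to 4. Its log2 difference was 0.47 ± 0.09 (SE, n = 4 and 4, adjusted p = 0.689), and 26.1% of the 31-base stretches of its transcripts are also found in Klhdc9 on the opposite strand. Pfdn2 passed in 2 of 19 alternatives, with sample quality weights and without the 3 mice high on the first component (adjusted p = 0.032 in both by limma). It did not pass with the bulb marker score as a covariate (0.42, adjusted p = 0.45). Vps8, a subunit of an endosomal tethering complex, had 1257, 1061, 1072 and 1315 in WT-Veh mice 1 to 4 and 1927, 1453, 1821 and 1900.0 in WT-Flx mice 1 to 4, with a log2 difference of 0.59 ± 0.12 (SE, n = 4 and 4, adjusted p = 0.976). Gtf3c6, a subunit of the general factor TFIIIC for RNA polymerase III, had 539, 589, 472 and 524 in WT-Veh mice 1 to 4 and 702, 757, 754 and 699 in WT-Flx mice 1 to 4, with a log2 difference of 0.46 ± 0.10 (SE, n = 4 and 4, adjusted p = 1.00). In each of these 4 genes the lowest WT-Flx mouse exceeded the highest WT-Veh mouse, which the rule for leading genes required.

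The leading genes lower in WT-Flx included a calcium channel, a calcium pump and a subunit of ATP synthase. Cacna1i, the pore of a low-voltage-activated T-type calcium channel (chromosome 15, 80287238 to 80398279), had normalized counts of 3684, 4050.3, 3994 and 4380.5 in WT-Veh mice 1 to 4 and 2444, 2979, 2966 and 3161 in WT-Flx mice 1 to 4. By the rule for leading genes no WT-Flx mouse reached the lowest WT-Veh mouse, and the log2 difference was -0.48 ± 0.10 (SE, n = 4 and 4, adjusted p = 0.976). Atp2a3, an endoplasmic reticulum calcium pump, had 282, 267, 337 and 309.9 in WT-Veh mice 1 to 4 and 229, 179.7, 159.6 and 216 in WT-Flx mice 1 to 4, with a log2 difference of -0.61 ± 0.15 (SE, n = 4 and 4, adjusted p = 1.00). Atp5e, the epsilon subunit of ATP synthase (chromosome 2, 174461072 to 174464105), had 1548, 1055, 1096 and 1113 in WT-Veh mice 1 to 4 and 902, 534, 599 and 675 in WT-Flx mice 1 to 4. Mouse 1 was highest in both groups, and the log2 difference was -0.84 ± 0.18 (SE, n = 4 and 4, adjusted p = 1.00). Both Cacna1i (adjusted p = 0.040 and 0.024 by limma) and Atp5e (0.032 and 0.0078) passed with sample quality weights and without the 3 mice high on the first component. Neither passed with the bulb marker score as a covariate (adjusted p = 0.66 and 0.45) or without WT-Veh mouse 1 alone (0.33 and 0.41). Without the 4 mice high in bulb markers, which leaves 1 WT-Flx mouse, the log2 differences were -0.48 and -0.86.

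Armc6, an armadillo-repeat protein, had 499, 507, 459.9 and 508 in WT-Veh mice 1 to 4 and 402, 333, 379 and 360.1 in WT-Flx mice 1 to 4 (log2 difference -0.42). Fancg, a protein of the Fanconi anemia DNA repair complex, had 433, 405, 355 and 310.3 in WT-Veh mice 1 to 4 and 276, 243, 266 and 233 in WT-Flx mice 1 to 4 (log2 difference -0.55). Cfap100, a protein of motile cilia, had 163, 115, 132 and 128 in WT-Veh mice 1 to 4 and 83.6, 87.8, 89.4 and 75.6 in WT-Flx mice 1 to 4 (log2 difference -0.66). The groups did not overlap in any of the 3, which the rule for leading genes required, and each had an adjusted p of 1.00 by limma. 2010111I01Rik, which encodes an aminopeptidase, stood at -0.40, with 660.9 to 818 in WT-Flx below 946 to 1042 in WT-Veh.

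Bc1 is a short noncoding RNA of neurons that is carried into dendrites and represses translation there. It is transcribed by RNA polymerase III from a locus of 168 bases (chromosome 7, 144914470 to 144914637, plus strand, GRCm38), and its normalized counts were 2428, 3619.6, 2770.1 and 4824 in WT-Veh mice 1 to 4 and 2419, 1359.7, 1426 and 1574 in WT-Flx mice 1 to 4. WT-Flx mice 2 to 4 were below every WT-Veh mouse, while WT-Flx mouse 1 and WT-Veh mouse 1 were separated by less than 10 normalized counts. The log2 difference was -0.998 ± 0.23 (SE, n = 4 and 4, adjusted p = 1.00). Bc1 passed in 2 of 19 alternatives, with sample quality weights (adjusted p = 0.035 by limma) and without the 3 mice high on the first component (0.020). It did not pass with the bulb marker score as a covariate (-0.87, adjusted p = 0.80) or without WT-Veh mouse 1 alone (-1.14, adjusted p = 0.33). The sequence is shown because only 58.0% of its 31-base stretches were found in no other gene, and most of the shared ones start in its repeat-like 5′ part. Capitals mark bases covered by at least one 31-base stretch found in no other annotated gene of GENCODE M21.
Bc1: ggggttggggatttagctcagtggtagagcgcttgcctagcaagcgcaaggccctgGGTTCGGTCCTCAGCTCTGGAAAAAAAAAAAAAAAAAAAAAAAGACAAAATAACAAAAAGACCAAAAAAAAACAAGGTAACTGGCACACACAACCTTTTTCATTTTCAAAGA
The library kit selects polyadenylated RNA and Bc1 ends without such a tail, but it holds an internal run of A, which lies within the capitals.

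**Figure D3:**
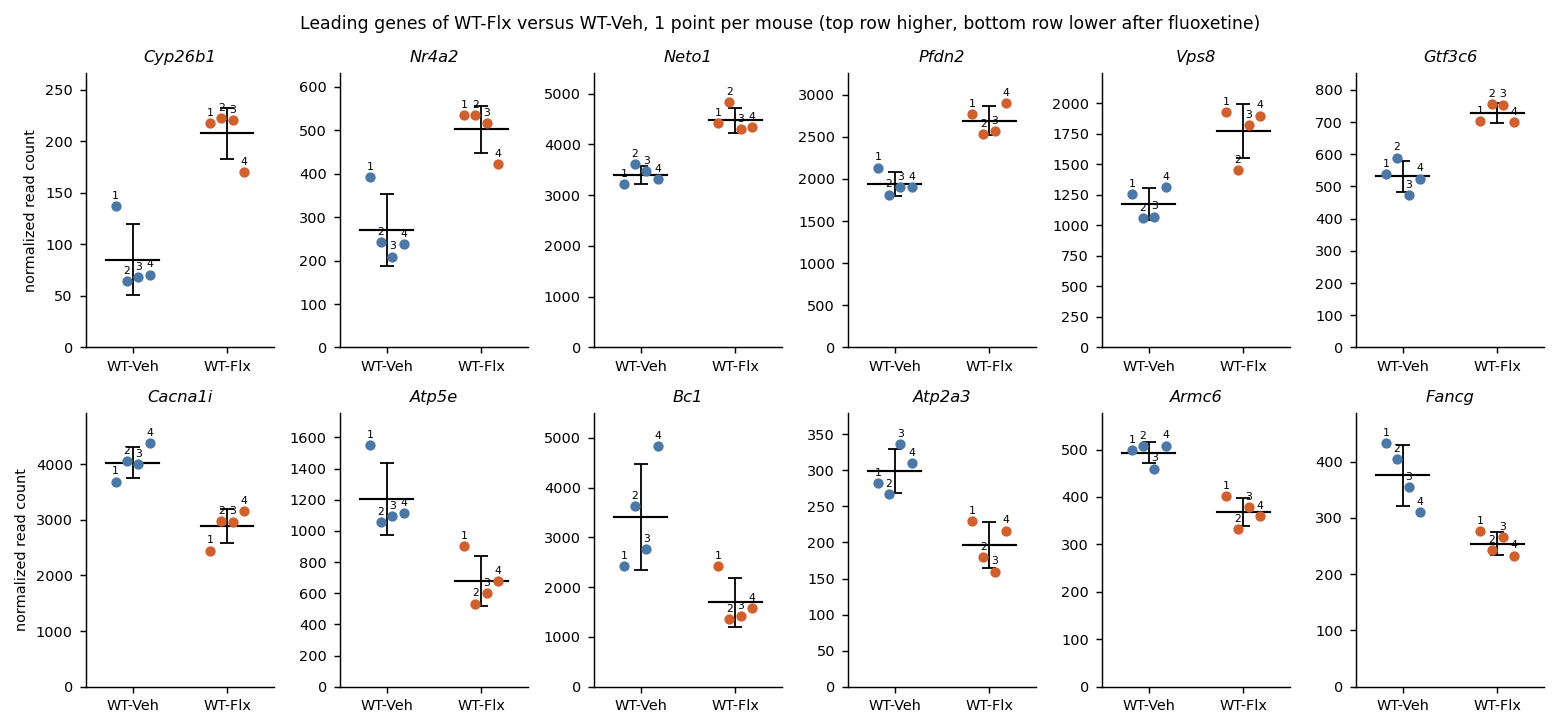
DESeq2 normalized read counts (y axis, starting at 0) of 12 leading genes in each mouse, with WT-Veh in blue, WT-Flx in orange, the mouse number beside each point, and lines for the group mean and error bars for 1 SD (n = 4 mice). The 2 groups do not overlap in any of the 12 genes, which the rule for leading genes required, and for Bc1 WT-Veh mouse 1 and WT-Flx mouse 1 nearly touch.

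Several other leading genes share most of their sequence with another gene, so a short read from one cannot always be told apart from a read of the other. Gm28037 overlaps the ribosomal protein gene Rpl24 and the transcription regulator Zbtb11 on the same strand (chromosome 16, 55966343 to 55980721), and 78.3% of its 31-base stretches are also in Rpl24. It had normalized counts of 107, 377, 482 and 445 in WT-Veh mice 1 to 4 and 1033, 1150.2, 1107 and 1174 in WT-Flx mice 1 to 4, without overlap, by the rule for leading genes, and with a log2 difference of 1.86 ± 0.40 (SE, n = 4 and 4, adjusted p = 1.00). Rpl24 itself had 3808, 2232, 2062 and 1935 in WT-Veh mice 1 to 4 and 2377, 1086, 1207 and 1503 in WT-Flx mice 1 to 4, with a log2 difference of -0.71 ± 0.27 (SE, n = 4 and 4, adjusted p = 1.00). The sum of the pair was 3915, 2609.6, 2544 and 2379 in WT-Veh mice 1 to 4 and 3409.7, 2236, 2314 and 2677 in WT-Flx mice 1 to 4, which overlapped between the groups, and its mean log2 difference was -0.10. Gm28037 passed without WT-Veh mouse 1 (1.36, adjusted p = 0.0024 by limma), with sample quality weights (0.035) and without the 3 mice high on the first component (0.0053). It did not pass with the bulb marker score as a covariate (2.27, adjusted p = 0.055) or with replicate number as a block (0.36). Rpl24 passed without the 3 mice (0.0081) but not without WT-Veh mouse 1 alone (0.48) or with quality weights (0.17). Without the 4 mice high in bulb markers, which leaves 1 WT-Flx mouse, the log2 differences of Gm28037 and Rpl24 were 1.35 and -0.78.

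Rps6-ps4 is a processed pseudogene of the ribosomal protein gene Rps6, and Rps12-ps3, annotated as protein coding, is named as a copy of Rps12. Every 31-base stretch of either one is also in the gene it is named after. Rps12-ps3 had 429, 267, 374 and 237 in WT-Veh mice 1 to 4 and 616, 725, 580.0 and 883 in WT-Flx mice 1 to 4, with a log2 difference of 1.12, against -0.32 for Rps12 and -0.06 for the sum. Rps12-ps3 passed in 1 of 19 alternatives, with sample quality weights (adjusted p = 0.035 by limma). Rps6-ps4 had 766, 824, 565 and 984 in WT-Veh mice 1 to 4 and 1284, 1933, 1413 and 2006 in WT-Flx mice 1 to 4, with a log2 difference of 1.08, against -0.30 for Rps6 and 0.06 for the sum. Both sums overlapped between the groups. Gm10177, of which 94.2% of stretches are in the translocon gene Sec61g, had 382, 368, 344 and 420.4 in WT-Veh mice 1 to 4 and 282, 222, 245 and 278 in WT-Flx mice 1 to 4 (log2 difference -0.56), and Sec61g stood at -0.17 and their sum at -0.43. Gm14325, a zinc finger gene with only 11.9% of stretches of its own, stood at -0.77.

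One low gene, chosen after its values were seen, also shares its sequence. AC123659.1 was listed at 0 in all 4 WT-Veh mice and at 42.4, 12.1, 11.7 and 18.9 in the WT-Flx mice. It passed the filter on low values through the WT-Flx mice alone, so no test is given for it. Of its 31-base stretches 99.3% are also in Hnrnpa1, which encodes an abundant RNA-binding protein. Hnrnpa1 had 6600.1, 5728, 5835 and 6469 in WT-Veh mice 1 to 4 and 6799, 6726, 6572 and 7141 in WT-Flx mice 1 to 4, with a log2 difference of 0.15.

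**Figure D4:**
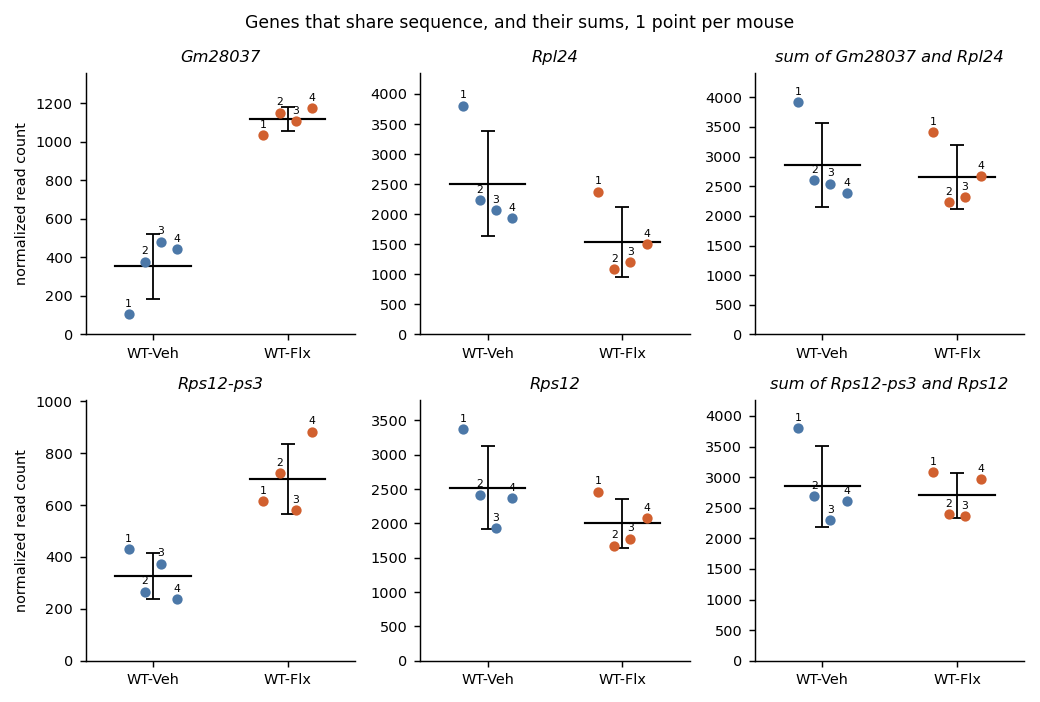
DESeq2 normalized read counts (y axis, starting at 0) in each mouse for Gm28037, Rpl24 and their sum (top) and for Rps12-ps3, Rps12 and their sum (bottom), with points numbered by mouse, group means as lines and error bars for 1 SD (n = 4 mice). Gm28037 and Rps12-ps3, leading genes chosen for no overlap, are separated between WT-Veh (blue) and WT-Flx (orange). Both sums, which were not chosen so, overlap and differ by -0.10 and -0.06 on the log2 scale.

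The receptors on which serotonin acts showed no difference that passed the test. Of 12 receptor genes tested, 5 were higher and 7 lower in WT-Flx, with a median log2 difference of -0.03, beside -0.00091 over all genes, and 1 of 12 was lower at an unadjusted p under 0.05, beside 2.0% of all genes tested. That gene was Htr7, a Gs-coupled receptor, with normalized counts of 295, 269, 278 and 227 in WT-Veh mice 1 to 4 and 199, 171, 245 and 198 in WT-Flx mice 1 to 4 and a log2 difference of -0.40 (95% interval -0.72 to -0.08). WT-Flx mouse 3 lay within the WT-Veh range and the other 3 WT-Flx mice below it. Htr2a, the Gq-coupled receptor of cortical pyramidal neurons, had 984, 1065, 981 and 1150.3 in WT-Veh mice 1 to 4 and 1082, 1235, 1155 and 1011 in WT-Flx mice 1 to 4, a log2 difference of 0.10 (95% interval -0.11 to 0.31). Htr1a, the inhibitory receptor that also serves as autoreceptor, had 366, 403, 460.3 and 396 in WT-Veh mice 1 to 4 and 475, 416, 424 and 276 in WT-Flx mice 1 to 4, with a log2 difference of -0.05 (95% interval -0.42 to 0.31), so differences beyond 0.42 in either direction fell outside its interval.

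Htr2c, a Gq-coupled receptor whose transcript is edited, had 522, 319, 294 and 332 in WT-Veh mice 1 to 4 and 569, 599, 338 and 506 in WT-Flx mice 1 to 4 and a log2 difference of 0.46 (95% interval -0.03 to 0.95). Its high values were in WT-Veh mouse 1 and WT-Flx mice 1, 2 and 4, the same 4 mice in which the bulb markers were high. With the bulb marker score as a covariate the log2 difference was 0.23, and without those 4 mice it was 0.10. Htr1b, an axonal receptor, stood at 0.31 (95% interval -0.13 to 0.75), Htr5a at -0.12 (95% interval -0.35 to 0.12) and Htr3a, the ligand-gated channel of a class of interneurons, at 0.03 (95% interval -0.36 to 0.42). The least abundant receptors had wide intervals: Htr4, at 5.03 to 28.6 normalized counts, stood at -0.49 (95% interval -1.64 to 0.66), and Htr1d, at 4.02 to 37.98, at 0.49 (95% interval -1.05 to 2.02). The serotonin transporter gene Slc6a4, fluoxetine's target, is expressed in the raphe and was not analysed here.

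Genes of monoamine synthesis, transport and breakdown gave 9 higher and 2 lower of 11 (median log2 difference 0.11). With the bulb marker score as a covariate, 4 of the 11 were higher and the median was -0.09, the value of Th. Th is itself 1 of the 10 genes in that score, so this median is not independent of the covariate. The turned direction of the list was therefore not read as a result. Maoa and Maob, the oxidases that degrade serotonin and other amines, are both expressed in cortex. Maoa had 967, 931, 967 and 961 in WT-Veh mice 1 to 4 and 1024, 1125, 1029 and 932 in WT-Flx mice 1 to 4 and a log2 difference of 0.10 (95% interval -0.09 to 0.29). Maob stood at 0.13 (95% interval -0.09 to 0.34). Slc22a3, a low-affinity organic cation transporter that takes up monoamines, had 74.3, 49.7, 49.1 and 48.3 in WT-Veh mice 1 to 4 and 103, 111, 59.7 and 63.1 in WT-Flx mice 1 to 4, a log2 difference of 0.57 (95% interval -0.01 to 1.14). Its values in WT-Veh mouse 1 and WT-Flx mice 1, 2 and 4, high in bulb markers, exceeded those of every other mouse. Th, the rate-limiting enzyme of dopamine synthesis and a marker of bulb periglomerular neurons, had 1329, 20.9, 42.4 and 27.5 in WT-Veh mice 1 to 4 and 209, 339, 42.4 and 999 in WT-Flx mice 1 to 4, high in the mice with high bulb markers. Tph2, the serotonin-synthesizing enzyme of raphe neurons, was near the lower limit of the table at 17.2, 18.1, 25.6 and 27.7 in WT-Veh mice 1 to 4 and 12.9, 16.1, 14.4 and 6.56 in WT-Flx mice 1 to 4. WT-Flx lay below WT-Veh in all 4 mice, with a log2 difference of -0.81 (95% interval -1.61 to -0.02).

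Neurotrophin genes, which many studies of antidepressants examine, were near 0. Of 11 tested, 5 were higher and 6 lower in WT-Flx, with a median log2 difference of -0.02. Bdnf had 545, 585, 669 and 587 in WT-Veh mice 1 to 4 and 601, 559.8, 607 and 632 in WT-Flx mice 1 to 4, fully overlapping, with a log2 difference of 0.01 (95% interval -0.21 to 0.23). Its receptor gene Ntrk2 stood at 0.07 (95% interval -0.26 to 0.40). Class IIa histone deacetylases and MEF2 factors, which couple activity to transcription, had 5 members higher and 7 lower of 12. Among them Hdac4 had 1316, 2151, 2204 and 2046 in WT-Veh mice 1 to 4 and 1343, 1624, 1577 and 1534 in WT-Flx mice 1 to 4, in which WT-Veh mouse 1 lay below the WT-Flx range, and a log2 difference of -0.32 (95% interval -0.67 to 0.03), and Mef2a stood at 0.13 (95% interval -0.10 to 0.37). Targets of the fragile X protein gave 4 higher and 6 lower of 10. The study picked these targets for their response to fluoxetine in Arid1b heterozygotes, so they are not independent evidence of a direction.

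Activity-regulated genes, which encode transcription factors and synaptic proteins induced within minutes to hours of firing, had 11 members higher and 7 lower of 18 (median log2 difference 0.03). Nr4a2, described above, and Npas4 were the 2 of 18 with an unadjusted p under 0.05 and no overlap, beside 2.2% and 1.81% of all genes tested in that direction. Npas4, a calcium-dependent transcription factor of neurons, had 566, 535, 354 and 484 in WT-Veh mice 1 to 4 and 685, 632, 673 and 642 in WT-Flx mice 1 to 4 and a log2 difference of 0.46 ± 0.14 (SE, n = 4 and 4, adjusted p = 1.00). Arc, which regulates trafficking of AMPA receptors, had 2939, 5144, 3684 and 5225 in WT-Veh mice 1 to 4 and 1974, 5579, 6079 and 3287 in WT-Flx mice 1 to 4, a log2 difference of -0.10 (95% interval -0.84 to 0.64), and Egr1 stood at 0.03 (95% interval -0.46 to 0.51) and Fos at -0.30 (95% interval -0.95 to 0.34). WT-Flx mouse 1 had the lowest Arc, Egr1, Fos and Egr2 of the 8 mice. Without the 3 mice high on the first component, that mouse among them, 16 of 18 members were higher in WT-Flx. The list median was then 0.36, a description with no test. This setting was chosen after the data were seen and gave the highest list median of all the alternatives. Over the alternatives the list median ran from -0.07 to 0.36, and 7 to 16 members were higher.

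Excitatory synapse genes lay close to 0. Of 44 genes for glutamate receptors and postsynaptic scaffolds, 19 were higher and 25 lower in WT-Flx, with a median log2 difference of -0.02, and none had an unadjusted p under 0.05. Gria1, an AMPA receptor subunit, stood at 0.19 (95% interval -0.04 to 0.42) and Grm8, a presynaptic metabotropic receptor, at 0.27 (95% interval -0.04 to 0.59). Presynaptic release genes gave 9 higher and 20 lower of 29 (median -0.03). Syt2, the calcium sensor of fast-spiking interneuron terminals, had 941, 1527, 1942 and 1683 in WT-Veh mice 1 to 4 and 643, 990.4, 1294 and 610.0 in WT-Flx mice 1 to 4 and a log2 difference of -0.81 (95% interval -1.41 to -0.20), with values that overlapped. Vamp1, a vesicle SNARE, stood at -0.29 (95% interval -0.62 to 0.04). All of these named synapse genes split by the bulb markers. In WT-Veh mouse 1 and WT-Flx mice 1, 2 and 4, high in those markers, Syt2 and Vamp1 were lower than in every other mouse. Gria1 and Grm8 were higher there than in every other mouse. Over the 19 alternatives Syt2 ran from -1.02 to -0.40, Vamp1 from -0.40 to -0.08 and Grm8 from -0.10 to 0.41. The cause was not tested.

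Genes of inhibition were split evenly in direction. Synthesis, transport and receptors of GABA gave 10 higher and 10 lower of 20, with none at an unadjusted p under 0.05. Pvalb, the calcium buffer that defines fast-spiking basket cells, had 819, 1126, 1132 and 1117 in WT-Veh mice 1 to 4 and 826, 545, 838 and 558 in WT-Flx mice 1 to 4. WT-Flx mice 2 and 4 were lowest, WT-Flx mice 1 and 3 matched WT-Veh mouse 1, and the log2 difference was -0.62 (95% interval -1.01 to -0.23). Over 20 interneuron markers and neuropeptides 9 were higher and 11 lower. Perineuronal net components, the matrix around those cells, gave 3 higher and 9 lower of 12 (median -0.04), and Hapln4, a link protein, had 2278, 3079, 3169 and 3079 in WT-Veh mice 1 to 4 and 2609, 2278, 3009 and 1724 in WT-Flx mice 1 to 4. Both Pvalb and Hapln4 were lower in WT-Veh mouse 1 and WT-Flx mice 1, 2 and 4, high in bulb markers, than in every other mouse. Over the 19 alternatives the log2 difference of Pvalb ran from -0.75 to -0.42 and that of Hapln4 from -0.40 to -0.05. The cause was not tested.

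Stress and glucocorticoid genes gave 4 higher and 10 lower of 14 (median -0.07), and the 2 of 14 at an unadjusted p under 0.05 had no overlap, beside 2.0% and 1.09% of all genes tested in that direction. With the bulb marker score as a covariate, 7 of 14 were higher and the median was 0.0097. Hsd11b1, which regenerates active glucocorticoid inside cells, had 308, 372, 391 and 383 in WT-Veh mice 1 to 4 and 275, 245, 306 and 252 in WT-Flx mice 1 to 4 and a log2 difference of -0.43 ± 0.12 (SE, n = 4 and 4, adjusted p = 1.00). Crhr1, the receptor for corticotropin-releasing hormone, had 974, 718, 747 and 769 in WT-Veh mice 1 to 4 and 638, 538, 517 and 695 in WT-Flx mice 1 to 4 and a log2 difference of -0.43 ± 0.13 (SE, n = 4 and 4, adjusted p = 1.00). The WT-Flx values of both genes lay below all WT-Veh values, and neither passed the adjusted threshold. Circadian clock genes gave 6 higher and 10 lower of 16, and Cry1, a repressor of the clock, had 509, 484, 536 and 544 in WT-Veh mice 1 to 4 and 646, 603, 570.4 and 606 in WT-Flx mice 1 to 4 with no overlap and a log2 difference of 0.23 (95% interval 0.02 to 0.43).

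Cholesterol synthesis genes lay almost entirely on the lower side, with small differences. Of 22 tested, 21 were lower and 1 higher in WT-Flx, the median log2 difference was -0.14 beside -0.00091 over all genes, and no gene passed the adjusted threshold. Their range was -0.35 to 0.09, and 3 of 22 were lower at an unadjusted p under 0.05 (Dhcr7, Mvd and Idi1), beside 2.0% of all genes tested. Dhcr7, the last enzyme of one branch of the pathway, had 666, 813, 825 and 755 in WT-Veh mice 1 to 4 and 641, 623, 651 and 569 in WT-Flx mice 1 to 4. Every WT-Flx value was below every WT-Veh value, and the log2 difference was -0.30 ± 0.10 (SE, n = 4 and 4, adjusted p = 1.00). Idi1, an isomerase of isoprenoid units, had 1758, 1887, 1665 and 1788 in WT-Veh mice 1 to 4 and 1493, 1625, 1641 and 1518 in WT-Flx mice 1 to 4, again without overlap, and a log2 difference of -0.18 (95% interval -0.35 to -0.00).

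Mvd, which makes isopentenyl diphosphate, had 472, 459, 413 and 419.8 in WT-Veh mice 1 to 4 and 473, 297, 296 and 341 in WT-Flx mice 1 to 4, and WT-Flx mouse 1 was the highest of the 8, so the groups overlapped. Its log2 difference was -0.35 (95% interval -0.69 to -0.01). Hmgcs1, a synthase early in the pathway, stood at -0.13 (95% interval -0.34 to 0.07) and Srebf2, the transcription factor that controls the pathway, at -0.09 (95% interval -0.30 to 0.12). The one gene above 0 was Pmvk, a kinase, at 0.09 (95% interval -0.15 to 0.33). Members of a pathway under shared control are not independent of each other, so the count describes these 8 mice and is not a test. In the 19 alternatives the list median ran from -0.19 to -0.09 and 1 to 3 members were higher.

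These genes respond together to the sterol-regulated factor SREBP, which binds sterol elements with the help of the CCAAT-binding factor NF-Y, so their promoters were scanned in RefSeq windows of 300 bases (250 before to 50 after a start site, GRCm38.p6). Windows were at hand for 16 of the 22 genes. CCAAT, on either strand, was in at least 1 window of 16 of 16 and in 41.1% of 27025 genes with windows of the same length. The sterol element core TCACNCCAC, on either strand, was in 1 of 16, Hmgcs1, and in 1.44% of genes. A match is a description of letters and not evidence of binding. Windows of the 2 genes that led the list are shown, with CCAAT or its reverse complement in capitals.
Dhcr7 (chr7:143829964-143830263, plus strand): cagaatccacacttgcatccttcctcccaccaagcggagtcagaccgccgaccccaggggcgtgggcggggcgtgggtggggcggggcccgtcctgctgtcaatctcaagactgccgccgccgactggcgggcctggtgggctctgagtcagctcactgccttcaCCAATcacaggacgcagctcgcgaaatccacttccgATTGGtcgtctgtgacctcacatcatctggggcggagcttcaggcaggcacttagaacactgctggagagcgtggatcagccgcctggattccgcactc
Mvd (chr8:122443373-122443672, minus strand): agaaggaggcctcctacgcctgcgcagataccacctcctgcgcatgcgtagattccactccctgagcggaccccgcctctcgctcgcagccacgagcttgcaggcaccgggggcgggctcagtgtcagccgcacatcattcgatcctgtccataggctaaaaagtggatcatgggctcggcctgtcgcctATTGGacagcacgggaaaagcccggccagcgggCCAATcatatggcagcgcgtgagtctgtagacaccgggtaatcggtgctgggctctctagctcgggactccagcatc
In each window 1 match lies on the gene's strand and 1 on the other, at -85 and -49 (Dhcr7) and -60 and -27 (Mvd) from the start site. Dhcr7 has 2 further windows in the table without a match.

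The chromatin-remodeling complex to which Arid1b belongs was measured through 28 SWI/SNF subunit genes, of which 15 were higher and 13 lower in WT-Flx, with a median log2 difference of 0.04. Arid1b had 1787, 2453, 2831 and 2401 in WT-Veh mice 1 to 4 and 1902, 2433, 2255 and 2047 in WT-Flx mice 1 to 4, overlapping, with a log2 difference of -0.12 (95% interval -0.43 to 0.19). Smarca2, one of the alternative ATPases, had 8521, 8492, 8035 and 8246 in WT-Veh mice 1 to 4 and 11144, 9659, 9848 and 9880.0 in WT-Flx mice 1 to 4. All WT-Flx mice were above all WT-Veh mice, mouse 1 the most, and the log2 difference was 0.28 ± 0.08 (SE, n = 4 and 4, adjusted p = 1.00). Smarce1, an accessory subunit with a DNA-binding HMG domain, had 1067, 963, 1187 and 1047 in WT-Veh mice 1 to 4 and 1277, 1664, 1193 and 1521 in WT-Flx mice 1 to 4, without overlap, and a log2 difference of 0.40 ± 0.12 (SE, n = 4 and 4, adjusted p = 1.00). The other ATPase gene, Smarca4, stood at -0.06 (95% interval -0.22 to 0.10) and the core subunit Smarcb1 at 0.02 (95% interval -0.35 to 0.39). Of 13 prefoldin and TRiC chaperonin subunits 6 were higher and 7 lower, the lowest at -0.14 and the highest, Pfdn2, at 0.47.

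Myelin and oligodendrocyte markers gave 19 higher and 1 lower of 20 (median log2 difference 0.13), and this rested on WT-Veh mouse 1, in which 12 of the 20 were lowest. Without WT-Veh mouse 1 the list median was -0.00 and 10 of 20 were higher. Sox10, the transcription factor of the lineage, was the only 1 of 20 with an unadjusted p under 0.05 (2.2% of all genes tested were higher at that p), at 853, 831, 968 and 862 in WT-Veh mice 1 to 4 and 1068, 1141, 1032 and 1104 in WT-Flx mice 1 to 4. Every WT-Flx mouse exceeded every WT-Veh mouse, and the log2 difference was 0.31 ± 0.09 (SE, n = 4 and 4, adjusted p = 1.00).

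Markers of other glia and of vessels were near 0. Astrocyte markers gave 7 higher and 8 lower of 15, microglia markers 9 and 6 of 15, endothelial and mural markers 8 and 7 of 15, and oligodendrocyte precursor markers 4 and 4 of 8. Aldh1l1, a folate enzyme of astrocytes, had 1768, 1902, 2144 and 1796 in WT-Veh mice 1 to 4 and 1718, 1307, 1630.5 and 1489.9 in WT-Flx mice 1 to 4 with no overlap and a log2 difference of -0.31 ± 0.11 (SE, n = 4 and 4, adjusted p = 1.00). Tyrobp, a microglial signaling adaptor, had 380.5, 329, 326 and 310.4 in WT-Veh mice 1 to 4 and 313, 232, 230.0 and 254 in WT-Flx mice 1 to 4, and WT-Flx mouse 1 lay within the WT-Veh range, with a log2 difference of -0.39 (95% interval -0.69 to -0.10). Col3a1, a fibrillar collagen of meningeal fibroblasts, had 63.0, 51.0, 44.7 and 55.4 in WT-Veh mice 1 to 4 and 153, 66.3, 109 and 125 in WT-Flx mice 1 to 4, all WT-Flx mice above WT-Veh, with a log2 difference of 1.02 ± 0.26 (SE, n = 4 and 4, adjusted p = 1.00), beside 8 higher and 4 lower of 12 meningeal markers. Ttr, the transthyretin of choroid plexus, had 17.1, 48.7, 74.8 and 243 in WT-Veh mice 1 to 4 and 6.76, 33.1, 10.5 and 5.57 in WT-Flx mice 1 to 4. WT-Veh mouse 4 alone exceeded 100 normalized counts, and the log2 difference was -2.43 (95% interval -4.10 to -0.75).

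Markers of neurons of neighboring regions were mostly higher in WT-Flx. Striatal markers gave 11 higher and 2 lower of 13 (median 0.35), migrating neuroblast markers 11 and 3 of 14 (median 0.31), and none of either list had an unadjusted p under 0.05. Penk, an opioid precursor of striatal and bulb neurons, had 2260.3, 1326, 2332 and 1192 in WT-Veh mice 1 to 4 and 2927, 2957, 1426 and 2706 in WT-Flx mice 1 to 4. Deep-layer cortical markers gave 13 higher and 2 lower of 15 (median 0.17), with 2 of 15 higher at an unadjusted p under 0.05 beside 2.2% of all genes tested, and upper-layer markers 5 and 7 of 12. Ntsr1, the neurotensin receptor of corticothalamic neurons, had 121, 129, 113 and 164 in WT-Veh mice 1 to 4 and 217, 207, 126 and 205 in WT-Flx mice 1 to 4 and a log2 difference of 0.50 (95% interval 0.05 to 0.94), and Rprm, a deep-layer gene, had 882, 711, 687 and 853 in WT-Veh mice 1 to 4 and 1358, 1099.5, 875 and 910.1 in WT-Flx mice 1 to 4 and 0.42 (95% interval 0.09 to 0.76). Without the 4 mice high in bulb markers, which leaves 1 WT-Flx mouse, the deep-layer median was 0.01 and the striatal median -0.18, with 8 of 15 and 1 of 13 higher. The neuroblast median was -0.26 with the bulb marker score as a covariate (2 of 14 higher), -0.03 without those 4 mice (6 of 13) and -0.05 without WT-Flx mouse 4 (5 of 13). The part of neighboring tissue in these differences was not tested otherwise.

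Genes of translation and respiration leaned to lower values and were also sensitive to WT-Veh mouse 1. Ribosomal protein genes gave 23 higher and 59 lower of 82 (median -0.09), and nuclear-encoded oxidative phosphorylation genes 17 and 64 of 81 (median -0.11). Without WT-Veh mouse 1, in which both lists were highest, 45 of 82 and 34 of 81 were higher and the medians were 0.03 and -0.03. Other alternatives went the other way, to medians of -0.21 and -0.23 with as few as 9 and 7 members higher. WT-Flx mouse 1 had the next highest score on both lists (11.5 and 10.9). Ndufa4, a cytochrome oxidase-associated subunit, had 4425, 3761, 3368 and 3848 in WT-Veh mice 1 to 4 and 3531, 2317, 2614 and 2741 in WT-Flx mice 1 to 4 and a log2 difference of -0.47 ± 0.13 (SE, n = 4 and 4, adjusted p = 1.00). Mitochondrial ribosomal proteins gave 28 higher and 50 lower of 78 (median -0.04).

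The 13 mitochondrially encoded genes lay on the other side, with 12 higher and 1 lower (median 0.20). mt-Nd1, a complex I subunit, had 259661, 288764, 280996 and 251143 in WT-Veh mice 1 to 4 and 289038, 333294, 338415 and 320399 in WT-Flx mice 1 to 4, with no overlap and a log2 difference of 0.25 (95% interval -0.02 to 0.51). The lower one was mt-Nd3, a small complex I subunit, at 3166, 2025, 2357 and 1663 in WT-Veh mice 1 to 4 and 2541, 999, 805 and 1864 in WT-Flx mice 1 to 4 and -0.68 (95% interval -1.43 to 0.07). It passed without the 3 mice high on the first component (adjusted p = 0.017 by limma) but not without WT-Veh mouse 1 alone (0.61). Without the 4 mice high in bulb markers, which leaves 1 WT-Flx mouse, its log2 difference was -1.31. Quantile normalization gives genes of equal rank equal values and so fixes the most abundant genes near 0, and nothing was read from it for this list. Interferon response genes gave 11 higher and 10 lower of 21 (median 0.03), nuclear retained long RNAs 3 and 5 of 8, and blood cell markers 2 and 5 of 7, which became 5 of 6 higher without WT-Veh mouse 1. Choroid plexus and ependymal markers gave 5 and 2 of 7.

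**Figure D5:**
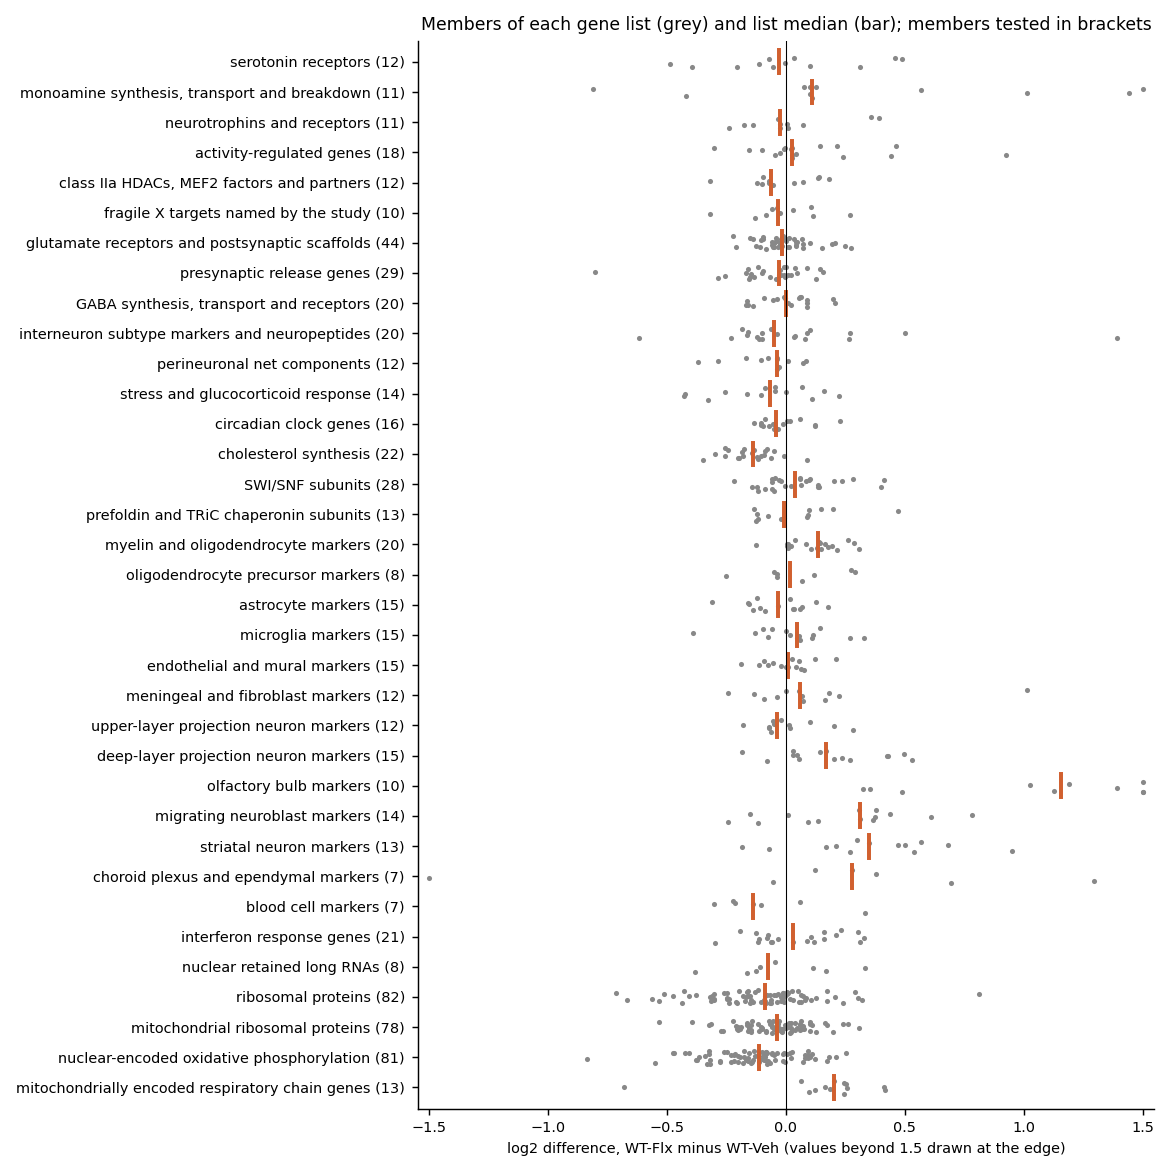
Log2 difference between WT-Flx and WT-Veh (x axis, 4 mice per group, values beyond 1.5 drawn at the edge) for each tested member of 35 gene lists (grey points), with the list median as an orange bar and the number of members tested in brackets. Cholesterol synthesis lies almost wholly left of 0 with a median of -0.14, whereas glutamate receptors center at -0.02 and olfactory bulb markers at 1.16.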

How the data were processed

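RNA of medial prefrontal cortex was sequenced with a stranded poly(A) kit. Per the labels and the submitters' processing notes, the authors quantified reads with Salmon (version 1.1.0, with GC bias correction) against GRCm38, summed them per gene and deposited DESeq2 (version 1.30.1) normalized read counts, treated here as a signal that is no longer whole reads, so the depth is unknown. The annotation behind the index is not given in the sources used here. The other 8 columns, of Arid1b heterozygotes, were not used.

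Genes reaching 10 in 4 or more of the 8 samples were kept (16833 of 18424), transformed as log2(value + 1) and tested, two-sided, with limma (version 3.58.1, R version 4.3.3, trended empirical Bayes, Benjamini-Hochberg adjustment). The script was tested on simulated data. Fold differences are on this log2 scale and are understated for low genes. Leading genes were the 10 per direction with the smallest p among those with a mean of at least 100 and no overlap between groups, and 35 gene lists added their extremes and set members, 95 named genes in all, some of which are not reported here. The comparison, members and lists were chosen with earlier results of these data known. Sequence stretches were compared with GENCODE M21 transcripts (GRCm38), and promoters came from RefSeq (GRCm38.p6). Whether equal replicate numbers pair the mice was checked by correlating deviations from the group means: the 4 values were 0.34, 0.11, 0.23 and -0.25, so the numbers were not taken as pairs. Alternatives were pseudocounts of 0.1 and 8, other filters and scalings, quality weights, a bulb marker covariate, a replicate block and leaving out libraries.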

Additional observations from a re-analysis of the deposited data

Results flagged for a closer look

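In each group of 4 mice, a sample was set aside for a closer look when its gap to the nearest other mouse was larger, as a share of the whole range of its group, than Dixon's 95% critical value for 4 samples. Chance alone does this in about 1 in 20 groups. Of 260 groups tested, 29 met it, 18 for named genes and 11 for list scores, and 20 of the 29 were WT-Veh mouse 1.

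In WT-Veh mouse 1 the normalized counts that stood apart were 137 for Cyp26b1, 1548 for Atp5e, 819 for Pvalb, 74.3 for Slc22a3, 522 for Htr2c, 1946 for Gphn, which encodes the scaffold of inhibitory synapses, and 2278 for Hapln4. The bulb genes Eomes (899), Cdhr1 (3485) and Th (1329) stood apart in the same mouse.

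List scores, which are means of log2(value + 1) over the members, stood apart in WT-Veh mouse 1 for monoamine genes (7.49), glutamate receptors and scaffolds (11.7), presynaptic genes (12.9), bulb markers (10.99), neuroblast markers (9.505), interferon response genes (7.87), nuclear retained RNAs (13.3), oxidative phosphorylation (10.96), ribosomal proteins (11.6) and mitochondrial ribosomal proteins (9.36).

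The other 9 were spread over 4 mice. WT-Flx mouse 1 stood apart for Smarca2 (11144), Neu4, a sialidase (148), and the score of the fragile X targets (11.9). WT-Flx mouse 3 did so for Ntsr1 (126), Penk (1426) and Maob (658), and WT-Flx mouse 4 for Cyp26b1 (170.1) and Nr4a2 (423). In WT-Veh mouse 2 it was Maoa (931). No explanation was tested for any of these.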

How the results depend on the processing

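No gene passed an adjusted p of 0.05 by limma with either pseudocount, without a filter, with a mean of at least 100, or after upper quartile or quantile scaling, and 539 to 759 had an unadjusted p under 0.05. Leaving out 1 mouse gave 0 to 4 genes past the adjusted and 447 to 1714 past the unadjusted threshold. The 4 appeared without WT-Veh mouse 1, and the unadjusted count also moved by over 1.5 times without WT-Flx mouse 1 (1413), WT-Veh mouse 2 (447), WT-Veh mouse 4 (461) and WT-Flx mouse 2 (461). Sample quality weights, which gave WT-Veh mouse 1 and WT-Flx mouse 1 the least weight (0.27 and 0.31), gave 12 and 2270, and a bulb score covariate 1 and 1011. The replicate block gave 0 and 1237, although the replicate numbers do not pair the mice. Chosen after the data were seen, leaving out the 3 mice high on component 1 gave 25 and 2562, and leaving out the 4 high in bulb markers 9 and 1494, with a lone WT-Flx mouse assumed to vary like the others. Log2 differences of some named genes took the other sign. Without the 4 mice these were Ntsr1 (-0.0861), Grm8 (-0.101), Gpr6 (-0.176), Penk (-0.115), Maob (-0.0835), Htr1a (0.0190), Arc (0.39) and Bdnf (-0.0139). Without the 3 they were Htr1a (0.00396), Arc (0.33) and Bdnf (-0.0718). The covariate gave Th (-0.0887), which is itself part of the bulb score, Htr1a (0.0516) and Arc (0.12). Quality weights gave Arc (0.0283) and Bdnf (-0.0266), and quantile scaling, which sets equal ranks to equal values, mt-Nd1 (-0.0062). Over the 8 fits without 1 mouse, Enpp6 ran from -0.0416 to 0.457, Htr1d from -0.0763 to 1.03, Ntrk2 from -0.0546 to 0.181, Htr1a from -0.15 to 0.11, Arc from -0.32 to 0.22 and Bdnf from -0.0318 to 0.0665. The cause was not tested. With 4 mice per group and unknown depth, small differences in low genes could not be bounded.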
